A study of Mus musculus with 6 samples.

Results

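Skeletal muscle transcripts were followed through RNA prepared from digested mouse cartilage. The 45 genes, chosen by name from a fixed list, encode the contractile apparatus, its calcium and energy supply, and the factors that set up the muscle programme. All 45 were found among the 43346 genes of the deposited table. RNA came from epiphyseal chondrocytes, the cartilage cells at the growing ends of bones, freed with collagenase II from mice aged 5 days. There were 3 wild type (WT) mice and 3 Girk3-/- mice, called Girk3-null below, which lack a subunit of the G protein-gated potassium channels encoded by Kcnj9. Both groups were labelled male and C57BL/6. Each genotype had 3 libraries, and the spread between them is taken as the error. How the null allele was made, and whether it is confined to some cells, is not given in the sources used here.

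A skeletal muscle fibre is built from repeating sarcomeres, in which myosin thick filaments pull on actin thin filaments between Z discs. Calcium released from the sarcoplasmic reticulum binds troponin C on the thin filament and permits contraction. Muscle precursors turn on Myod1 and then Myog as they fuse into fibres, and young fibres exchange embryonic and perinatal myosins for adult ones around and after birth. Chondrocytes are not known for sarcomeres, but muscle and tendon attach close to the cartilage that is dissected here.

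Total counts ran from 34279516 to 60392837 per library, and 42 of the 45 genes had enough counts to be tested, with Myh2, Myh7 and Trdn left out. Col2a1, the main collagen of cartilage, took 3.12% to 8.25% of all counts. Girk3-null replicate 1 had 16088 counts over 4 Y-linked genes against 0 to 7 in the other 5 libraries, where Xist, the RNA of the inactive X chromosome, stood at 67346 to 144825 counts. The sex label of those 5 libraries is therefore not borne out by their transcripts. The median fold change of the members and the number lower in edgeR are also given without Girk3-null replicate 1. Most other counts below are given only with that library included. Title numbers were under 200 for the first pair of wild type libraries and for Girk3-null replicate 1, and over 200 for the other 3. What that number stands for is not stated.

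Promoter sequence is shown for Acta1, Mylpf and Eno3, the 3 members with the highest mean RPKM (reads scaled to gene length and library size), and for Myog, which was added after its values were seen. Between the lowest and the highest library Acta1 varied 10.9-fold, Mylpf 4.32-fold, Eno3 1.42-fold and Myog 46.4-fold. Each run is the 250 bases before the annotated start, 5′ to 3′ on the gene's own strand, from RefSeq on GRCm38.p6. Capitals mark E-boxes (CANNTG, the kind of site bound by Myod1 and Myog) and CArG boxes (sites of serum response factor).
Acta1, chr8:123894776-123895025, minus strand: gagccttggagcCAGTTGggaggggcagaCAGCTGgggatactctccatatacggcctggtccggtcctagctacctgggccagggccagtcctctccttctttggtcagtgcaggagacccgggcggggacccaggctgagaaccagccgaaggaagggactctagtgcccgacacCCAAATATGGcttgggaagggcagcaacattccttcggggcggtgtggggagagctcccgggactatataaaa
Mylpf, chr7:127211358-127211607, plus strand: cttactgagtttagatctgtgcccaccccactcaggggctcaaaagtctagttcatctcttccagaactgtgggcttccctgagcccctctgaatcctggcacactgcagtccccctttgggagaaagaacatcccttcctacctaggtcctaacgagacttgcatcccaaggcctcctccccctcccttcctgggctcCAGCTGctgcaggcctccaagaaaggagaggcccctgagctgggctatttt
Eno3, chr11:70656926-70657175, plus strand: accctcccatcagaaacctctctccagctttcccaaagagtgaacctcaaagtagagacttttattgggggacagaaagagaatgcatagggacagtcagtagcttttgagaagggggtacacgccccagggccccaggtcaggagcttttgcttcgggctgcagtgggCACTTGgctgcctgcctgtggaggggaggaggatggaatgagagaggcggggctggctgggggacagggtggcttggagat
Myog, chr1:134289754-134290003, plus strand: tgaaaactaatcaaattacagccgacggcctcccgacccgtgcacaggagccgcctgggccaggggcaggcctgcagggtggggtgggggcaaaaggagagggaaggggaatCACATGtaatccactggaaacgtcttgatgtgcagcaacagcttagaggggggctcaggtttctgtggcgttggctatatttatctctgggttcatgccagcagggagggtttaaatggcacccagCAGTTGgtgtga

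The promoter table held 34 of the 45 members. The E-box form CAGCTG, searched on both strands, lay in this window for 14 of the 34 (41.2%), against 14.7% of all 27025 genes in the table. A MEF2 site, the motif of a muscle transcription factor family, was found for 7 of the 34 (20.6%), against 3.4% of all genes. CArG boxes were found for 4 of the 34 (11.8%) and 1.6% of all genes. Any E-box (CANNTG, which includes CAGCTG) was common everywhere, at 82.4% of matched members and 69.3% of all genes. Of the 4 promoters printed, Acta1 and Mylpf held CAGCTG, and Eno3 and Myog held other E-boxes. Such matches describe letters in a window, not bound sites.

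Muscle transcripts were scarce in every library. Summed over the 45 genes, their share of the library was 0.0176%, 0.0171% and 0.00840% for wild type, in order of replicate number. It was 0.0114%, 0.00631% and 0.00753% for Girk3-null libraries, and values below keep this order. Wild type replicates 1 and 2 were the highest, and Girk3-null replicate 1 stood above wild type replicate 3, so the groups overlapped. Mean RPKM ran from 0.0208 for Myh7 to 6.81 for Acta1, with a median of 0.315 over the members, against 3.95 over all tested genes. In bulk RNA, fewer muscle cells and less RNA per muscle cell cannot be told apart.

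The comparison asked which members differ in level between Girk3-null and wild type cartilage digests. Among 42 tested members 31 had a lower fitted level in Girk3-null libraries, against 48.2% of all tested genes. The median log2 fold change of the 42 was -0.66, against 0.01 over all 17554 genes tested. No member passed edgeR's quasi-likelihood test at an adjusted p of 0.05, in a comparison that called 0% of all genes lower and 0.0057% higher. At an unadjusted p under 0.05 there were 13 members lower and 0 higher, where the background was 7.02% of all genes lower and 7.49% higher. DESeq2 called 5 members lower and 0 higher among 36 with an adjusted p, with 0.997% of all genes lower and 1.14% higher. Limma-voom called 0 of 42 after adjustment, with 0% of all genes called. At an unadjusted p under 0.05 limma-voom had 12 lower, a count for which the share of all genes was not computed. In 12 tested members every Girk3-null library lay below every wild type library, and in 0 above; over all genes 10.2% lay wholly lower and 9.86% wholly higher.

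The size of this difference depended on single libraries. Without Girk3-null replicate 1 the median was -1.41 and 23 of 45 members were lower at an unadjusted p under 0.05, against 4.77% of all genes in that fit. That fit keeps no Girk3-null library with a title number under 200, so genotype and title number are partly confounded in it. The same holds wherever that library is left out below. The median shrank to -0.37 when wild type replicate 2 was left out, and to -0.38 when Girk3-null replicate 2 was. With the title number as a term beside genotype it was -0.23. Girk3-null replicate 2 was the lowest library for 21 of the 45 genes, and wild type replicates 1 and 2 were the highest for 16 and 11.

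**Figure D1:**
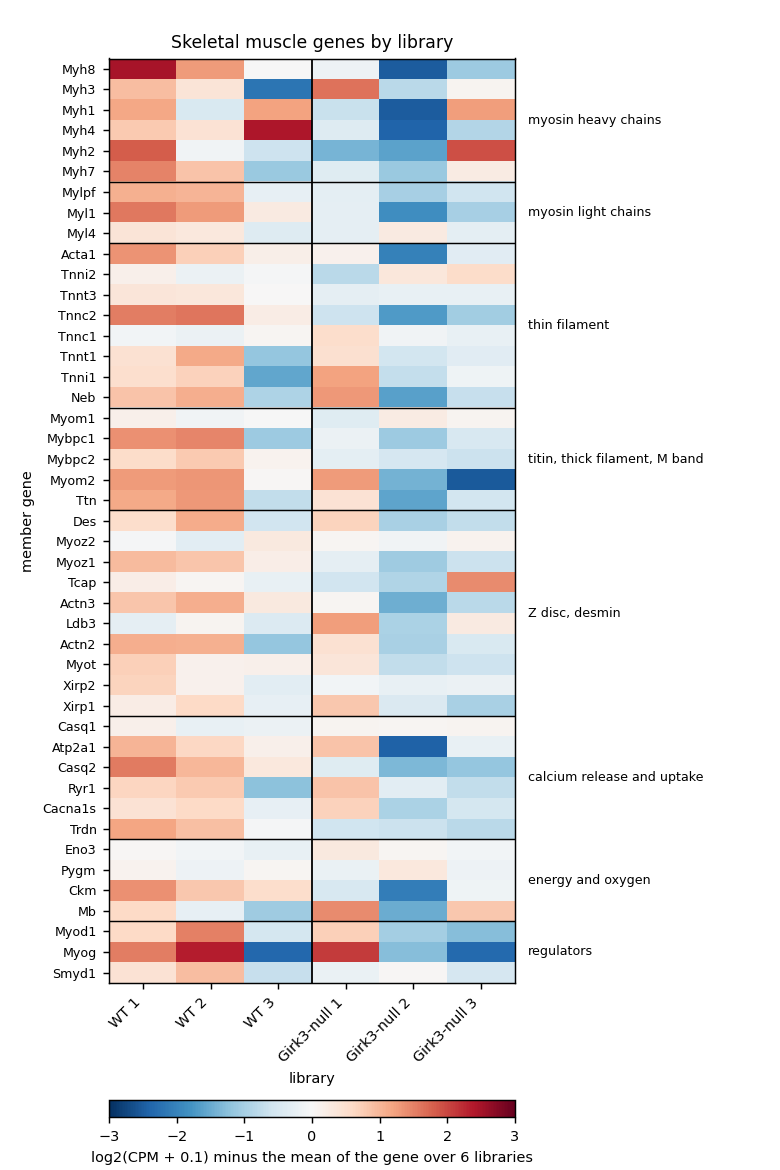
Level of each of the 45 members (rows, grouped by role) in each library (columns), as log2(CPM + 0.1) minus the mean of the gene over the 6 libraries; red is above and blue below that mean, and the vertical line parts wild type from Girk3-null libraries. Wild type replicates 1 and 2 are the highest for 16 and 11 genes, Girk3-null replicate 2 is the lowest for 21, and a few rows such as Casq1, Eno3, Pygm, Myom1 and Myoz2 are nearly white throughout.

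Myosin heavy chains, the motor proteins of the thick filament, differed between libraries in kind as well as in amount. Myh8, the perinatal form (chromosome 11, 67277124 to 67308634, mm10), measured 8.07, 3.44 and 1.34 CPM (counts scaled to library size by TMM factors) in the wild type. It was at 1.22, 0.161 and 0.592 CPM in the mutants. All Girk3-null libraries were lower than all wild type libraries (log2 fold change -2.67, standard error 0.76, adjusted p = 0.291 in edgeR), though wild type replicate 3 and Girk3-null replicate 1 were close. Myh4, the fastest adult form, measured 0.805, 0.607 and 2.73 CPM in wild type libraries. In Girk3-null libraries it was at 0.304, 0 and 0.187 CPM, the 0 allowing up to 0.0688 CPM. Its groups did not overlap either (log2 fold change -2.99, standard error 0.90, adjusted p = 0.291 in edgeR and 0.0305 in DESeq2, with 0.0305 to 0.814 over all alternatives). The highest value was in wild type replicate 3, the library with the fewest Myh8 counts of its group. Without wild type replicate 3 the Myh4 log2 fold change was -2.04.

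The embryonic form Myh3 went another way. It measured 1.59, 1.07 and 0.0976 CPM in wild type libraries and 2.65, 0.413 and 0.842 CPM in Girk3-null libraries. The groups overlapped, with the highest level in Girk3-null replicate 1 and the lowest, 4 counts, in wild type replicate 3 (log2 fold change 0.52, standard error 0.85, adjusted p = 0.790 in edgeR). Its sign turned, to -0.58, when Girk3-null replicate 1 was left out. Myh1, an adult fast form, was at 1.76, 0.497 and 1.81 CPM against 0.422, 0.0459 and 1.87 CPM, again with overlap (log2 fold change -0.85, adjusted p = 0.675). Myh2, the adult fast oxidative form, and Myh7, the slow form, had 95 and 49 counts in all and were not tested. Of Myh2, 46 counts were in wild type replicate 1 and 34 in Girk3-null replicate 3, while Girk3-null replicate 2 had 0. Myh7 had 24 and 16 counts in wild type replicates 1 and 2 and at most 5 in any other library.

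Shares within a library describe the kind of muscle RNA without regard to how much there is. Developmental myosins (Myh3 and Myh8) made up 61.0%, 66.2% and 14.8% of the summed RPKM of the 6 heavy chain genes in wild type libraries. In Girk3-null libraries they made up 81.0%, 91.9% and 27.8%. Adult fast myosins (Myh1, Myh2 and Myh4) filled most of the rest, at 85.3% in wild type replicate 3 and 69.6% in Girk3-null replicate 3. The genotypes overlapped in both shares, with group means of 47.3% ± 28.3 and 66.9% ± 34.3 for developmental myosins (SD, n = 3 each). As a share of counts, developmental myosins were 456 of 647 (70.5%, exact 95% interval 66.8 to 74.0%), 245 of 331 (74.0%, 68.9 to 78.7%) and 59 of 249 (23.7%, 18.6 to 29.5%) in the wild type libraries. In Girk3-null libraries they were 229 of 277 (82.7%, 77.7 to 86.9%), 25 of 27 (92.6%, 75.7 to 99.1%) and 46 of 151 (30.5%, 23.2 to 38.5%). The intervals of wild type replicate 3 and Girk3-null replicate 3 lay below those of the other 4 libraries, and they cover counting error only. Heavy chain genes resemble each other in sequence, and how reads shared between them were counted is not given, so the split between forms is uncertain.

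**Figure D2:**
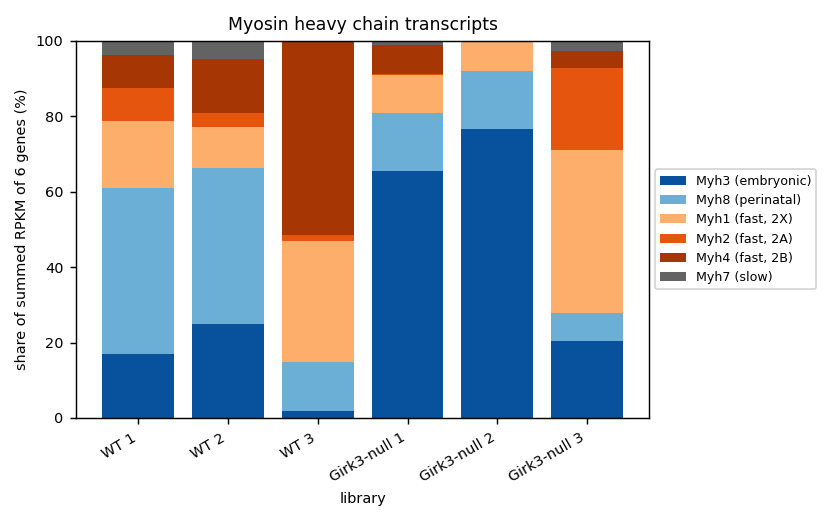
Share of each of the 6 myosin heavy chain genes in their summed RPKM (y axis, percent) in each library (x axis); blue bars are developmental forms, orange to brown bars adult fast forms and grey the slow form. Blue fills 61.0% to 91.9% of the bar in 4 libraries, and 14.8% and 27.8% in wild type replicate 3 and Girk3-null replicate 3; the bar of Girk3-null replicate 2 rests on 27 counts.

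For both fast myosin light chains the groups did not overlap, though for Mylpf by a narrow margin. Of all genes 10.2% lay wholly lower and 9.86% wholly higher. Myl1, the essential light chain of fast fibres (chromosome 1, 66924295 to 66945404, mm10), measured 8.22, 6.62 and 3.22 CPM in wild type and 2.18, 0.665 and 1.28 CPM in Girk3-null libraries. The groups did not overlap, and the log2 fold change was -2.11 with a standard error of 0.47 (adjusted p = 0.291 in edgeR and 0.00105 in DESeq2). Mylpf, the regulatory light chain of fast fibres (chromosome 7, 127211608 to 127214298, mm10), was at 9.99, 9.68 and 3.93 CPM against 3.83, 2.32 and 3.09 CPM. Here wild type replicate 3 exceeded Girk3-null replicate 1 by little (log2 fold change -1.35, standard error 0.36, adjusted p = 0.291 in edgeR and 0.0164 in DESeq2). Over all alternatives the adjusted p ran from 0.00105 to 0.814 for Myl1 and from 0.0164 to 0.814 for Mylpf. Myl4, the embryonic and atrial light chain, stayed between 1.05 and 1.86 CPM in all 6 libraries (log2 fold change -0.23, adjusted p = 0.750 in edgeR).

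Of 8 thin filament genes, 3 were lower in Girk3-null libraries at an unadjusted p under 0.05 and 0 higher (7.02% and 7.49% of all genes). Acta1, skeletal muscle actin (chromosome 8, 123891767 to 123894736, mm10), measured 19.6, 12.7 and 8.66 CPM in wild type and 8.42, 1.79 and 5.99 CPM in Girk3-null libraries. Its groups just failed to overlap, with wild type replicate 3 next to Girk3-null replicate 1 (log2 fold change -1.33, standard error 0.50, adjusted p = 0.305 in edgeR). Nebulin, encoded by Neb and wound along the thin filament, instead had its highest level in a Girk3-null library. It measured 5.80, 6.82 and 1.64 CPM in wild type and 7.91, 0.963 and 1.93 CPM in Girk3-null libraries. The Neb fold change of -0.38 turned to 0.07 without Girk3-null replicate 2 and to 0.09 with the title number as a term.

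Tnnc2, the calcium sensor of fast fibres, had the smallest p of all members. Its level was 4.98, 5.26 and 1.95 CPM in wild type and 1.03, 0.436 and 0.748 CPM in Girk3-null libraries. All 3 Girk3-null libraries were below all wild type libraries (log2 fold change -2.45, standard error 0.45, adjusted p = 0.291 in edgeR and 6.47e-05 in DESeq2, with 6.47e-05 to 0.814 over all alternatives). Tnnc2 lies on chromosome 2 (164777161 to 164779967, mm10), and 592 of its 800 exon bases (74.0%) are also exon of Ube2c on the opposite strand. Ube2c, a ubiquitin-conjugating enzyme of mitosis, had 516, 521 and 352 counts in wild type and 315, 249 and 236 in Girk3-null libraries, against 235, 286, 80 and 61, 19, 24 counts for Tnnc2. Without strand, reads of the pair cannot be told apart, so the level of Tnnc2 is uncertain. Ube2c itself was lower in Girk3-null libraries by less (log2 fold change -0.67, adjusted p = 0.291 in edgeR). Tnnc1, the slow and cardiac troponin C, was at 1.59, 1.47 and 1.76 CPM in wild type and 2.48, 1.56 and 1.43 CPM in Girk3-null libraries, with no separation (log2 fold change 0.20, adjusted p = 0.764). Its sign turned, to -0.10, with Girk3-null replicate 1 left out. The fast gene made up 80.3%, 82.3% and 59.1% of troponin C RPKM in wild type libraries and 35.1%, 26.7% and 40.4% in Girk3-null libraries. Those shares did not overlap, were given no test, and carry the same uncertainty as Tnnc2.

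Among the other troponins only Tnnt3 also had separated groups. Tnnt3, the fast troponin T that anchors the complex to tropomyosin, measured 7.01, 6.90 and 5.42 CPM in wild type and 4.46, 4.61 and 4.61 CPM in Girk3-null libraries. The groups did not overlap, but the step was small (log2 fold change -0.50, standard error 0.18, adjusted p = 0.296 in edgeR). Tnni2, the fast inhibitory subunit, was at 7.03, 5.59 and 6.20 CPM against 3.56, 8.14 and 9.32 CPM, so Girk3-null libraries were both the highest and the lowest (log2 fold change 0.15, adjusted p = 0.839, and -0.16 with the title number as a term). Slow Tnnt1 was at 1.25, 2.06 and 0.342 CPM against 1.28, 0.573 and 0.686 CPM. Its fold change of -0.52 turned to 0.10 without wild type replicate 2 and to 0.15 with the title number as a term. Slow Tnni1 was at 0.826, 0.957 and 0.122 CPM against 1.42, 0.298 and 0.499 CPM, highest in Girk3-null replicate 1 and lowest in wild type replicate 3. Its fold change of 0.23 turned to -0.71 without Girk3-null replicate 1 and to -0.23 without wild type replicate 3.

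**Figure D3:**
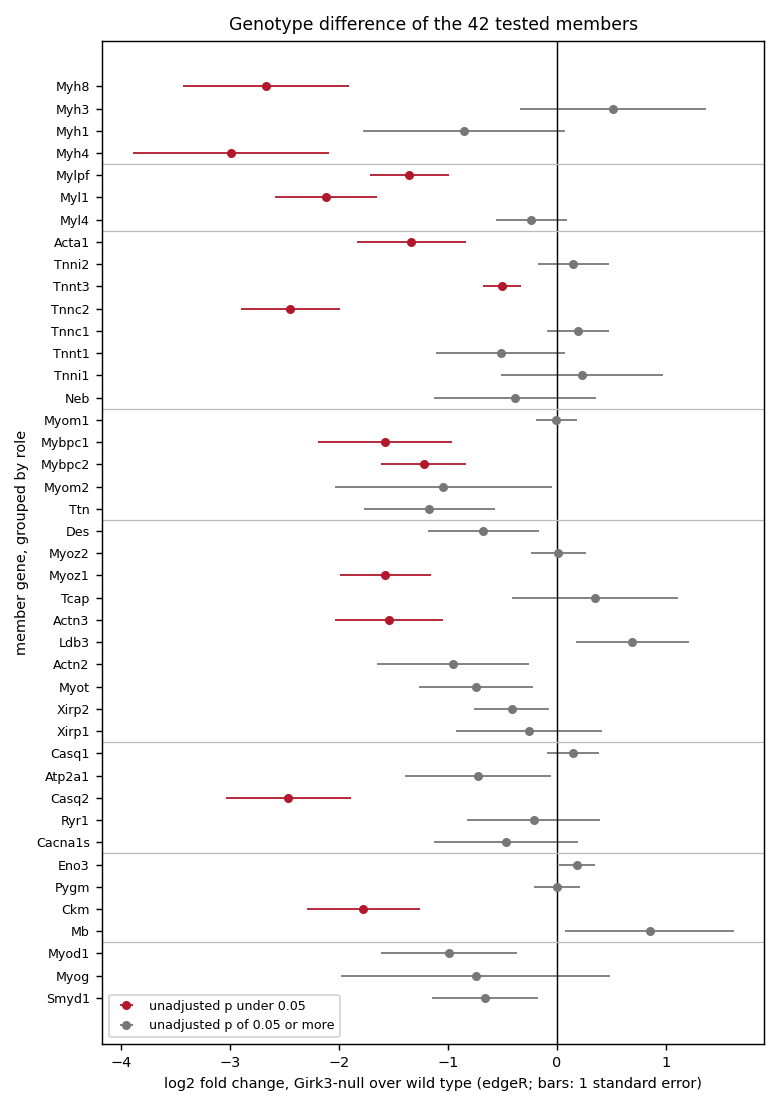
Log2 fold change of Girk3-null over wild type (x axis) for the 42 tested members (y axis, grouped by role), with bars of 1 standard error from edgeR. Red points are the 13 members with an unadjusted p under 0.05, all to the left of 0; no member passed after adjustment over all genes.

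Among 5 tested genes of titin, the thick filament and the M band, Mybpc1 and Mybpc2 were lower in Girk3-null libraries at an unadjusted p under 0.05 and 0 were higher (7.02% and 7.49% of all genes). They encode the slow and fast myosin binding protein C. Mybpc1 measured 4.32, 4.67 and 0.708 CPM in wild type and 1.42, 0.711 and 1.12 CPM in Girk3-null libraries, with wild type replicate 3 the lowest of all (log2 fold change -1.57, adjusted p = 0.312 in edgeR). With the title number as a term the Mybpc1 value was -0.76 (unadjusted p = 0.172 in edgeR). Mybpc2 was lower and separated, at 0.635, 0.754 and 0.439 CPM against 0.304, 0.252 and 0.218 CPM, a log2 fold change of -1.22 (standard error 0.39, adjusted p = 0.291). Ttn, the giant spring of the sarcomere, was at 9.32, 10.5 and 2.47 CPM against 5.67, 1.33 and 2.84 CPM, with overlap (log2 fold change -1.17, adjusted p = 0.385). The M band protein gene Myom1 kept to 6.75 to 10.3 CPM in all libraries, while its relative Myom2 ran from 1.32 CPM in wild type replicate 2 down to 0 counts in Girk3-null replicate 3.

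Among 10 genes of the Z disc and the desmin filaments beside it, 2 were lower at an unadjusted p under 0.05 and 0 higher, where 7.02% and 7.49% of all genes were. Myoz1, which binds calcineurin at the Z disc of fast fibres, was at 1.04, 0.957 and 0.586 CPM in wild type and 0.388, 0.183 and 0.281 CPM in Girk3-null libraries. Actn3, the alpha-actinin of fast fibres, was at 1.29, 1.55 and 0.854 CPM against 0.709, 0.183 and 0.343 CPM. Both were separated, with log2 fold changes of -1.57 and -1.54 (adjusted p = 0.291 each in edgeR). Des, the intermediate filament of muscle cells and their precursors, was at 11.0, 16.6 and 5.03 CPM against 12.0, 3.81 and 4.49 CPM, and the groups overlapped (log2 fold change -0.67, adjusted p = 0.536). Myoz2, the slow fibre relative of Myoz1, remained between 1.71 and 2.66 CPM. Of the other 6 members, Actn2, Myot, Xirp1 and Xirp2 had negative and Ldb3 and Tcap positive fitted fold changes, from -0.95 to 0.70, and all 6 overlapped. Tcap was highest in Girk3-null replicate 3, with 31 of its 90 counts.

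Genes of calcium release and uptake held 1 member with separated groups among 5 tested. Over all genes 10.2% lay wholly lower and 9.86% wholly higher. Casq2, the slow and cardiac calcium store protein, had 55, 41 and 18 counts in wild type and 14, 3 and 3 in Girk3-null libraries. That is 1.17, 0.754 and 0.439 CPM against 0.236, 0.0688 and 0.0935 CPM, or a log2 fold change of -2.46 (standard error 0.58, adjusted p = 0.291 in edgeR), and the 2 lowest values are at the limit of 3 counts. Trdn, which couples that store to the release channel, had 20, 18 and 5 counts against 3, 2 and 1 and was too low to be tested. Casq1, the fast fibre counterpart, measured 1.95, 1.47 and 1.54 CPM against 1.86, 1.81 and 1.84 CPM, the narrowest range of all 45 members. Atp2a1, the calcium pump of fast fibres, was at 4.24, 3.22 and 2.27 CPM against 3.78, 0.298 and 1.75 CPM, with a dip in Girk3-null replicate 2 (log2 fold change -0.72, adjusted p = 0.614). It was -1.71 with Girk3-null replicate 1 left out and -0.21 with Girk3-null replicate 2 left out. Of its exon bases 21.9% overlap Rabep2 on the other strand, which had 7011 counts in all. Ryr1, the release channel, and Cacna1s, its voltage sensor, overlapped between groups, with fold changes of -0.21 and -0.47.

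In energy supply and oxygen storage, Ckm was lower in every Girk3-null library and the other 3 genes overlapped between groups. Among all genes 10.2% lay wholly lower and 9.86% wholly higher. Ckm, the muscle creatine kinase, was at 3.24, 2.17 and 1.78 CPM in wild type and 0.827, 0.206 and 1.09 CPM in Girk3-null libraries. No Girk3-null library reached the wild type range (log2 fold change -1.77, standard error 0.52, adjusted p = 0.291 in edgeR and 0.0395 in DESeq2, with 0.0395 to 0.814 over all alternatives). Mb, myoglobin, was highest in Girk3-null replicate 1 at 1.67 CPM and lowest in Girk3-null replicate 2 at 0.138 CPM. Eno3, a glycolytic enolase, was at 7.86, 7.19 and 6.61 CPM against 9.42, 8.05 and 7.23 CPM (log2 fold change 0.19, adjusted p = 0.588). Pygm, the muscle glycogen phosphorylase, had the same mean in both groups, 4.55 ± 0.420 CPM in wild type and 4.56 ± 0.979 CPM in Girk3-null libraries (SD, n = 3 each).

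The 3 regulators overlapped between genotypes. Myog, which drives precursors to fuse and differentiate (chromosome 1, 134289989 to 134292548, mm10), had 151, 308 and 5 counts in wild type and 280, 16 and 4 in Girk3-null libraries. In CPM that is 3.20, 5.67 and 0.122 against 4.73, 0.367 and 0.125, a 46.4-fold range with high and low libraries in both groups. Myod1, the factor that commits cells to muscle, was at 6.80, 12.8 and 3.05 CPM against 7.39, 2.13 and 1.78 CPM. Smyd1, a methyltransferase needed for sarcomere assembly, ranged from 0.317 to 1.18 CPM. Fold changes were -0.74, -0.99 and -0.66 (adjusted p = 0.791, 0.462 and 0.527 in edgeR). That of Myog turned to 0.34 with the title number as a term. It was 0.10 with wild type replicate 2 left out, and -3.54 with Girk3-null replicate 1 left out. No Girk3-null library in the latter fit had a title number under 200. The same left-out libraries gave -0.37 and -1.95 for Myod1, and Smyd1 was at -0.21 with wild type replicate 2 left out.

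The libraries with high Myog were those with title numbers under 200, in both genotypes. In 16 tested members all 3 of these libraries lay above all 3 others, against 6.16% of all genes. A gene in this order cannot also be wholly lower in Girk3-null libraries, because Girk3-null replicate 1 is then above wild type replicate 3. Among them were Myog, Myod1, Neb, Des, Ttn, Ryr1, Myh3, Tnni1 and Actn2. In an edgeR fit with genotype and title number together, the title number term was higher below 200 for 22 of 42 members at an unadjusted p under 0.05 (background 3.09% of all genes) and lower for 0 (background 3.89%). The largest value was 4.54 for Myog, followed by 2.65 for Myh3, and no gene passed after adjustment. In the same fit 11 members were lower for genotype at an unadjusted p under 0.05 (background 5.63%) and 2 higher (background 7.05%). The 2 higher ones were Myh3 and Tnni1, at 1.51 and 1.01. Tnnc2, Myl1 and Mylpf were at -2.04, -1.76 and -0.97. The title number was used only as the labels print it, and whether it follows litter, date or handling was not tested.

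Within the numbers under 200, both wild type libraries were above Girk3-null replicate 1 in 23 of 42 tested members, against 42.2% of all genes. Within the numbers over 200, wild type replicate 3 was above both Girk3-null libraries in 21, against 32.2%. Both orders held for 12 tested members, against 15.7%, and each side rests on 3 libraries with 1 of them alone in its genotype. These are the same 12 members counted above as wholly lower in Girk3-null libraries, because such a gene must show both orders. The count is therefore no further result.

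**Figure D4:**
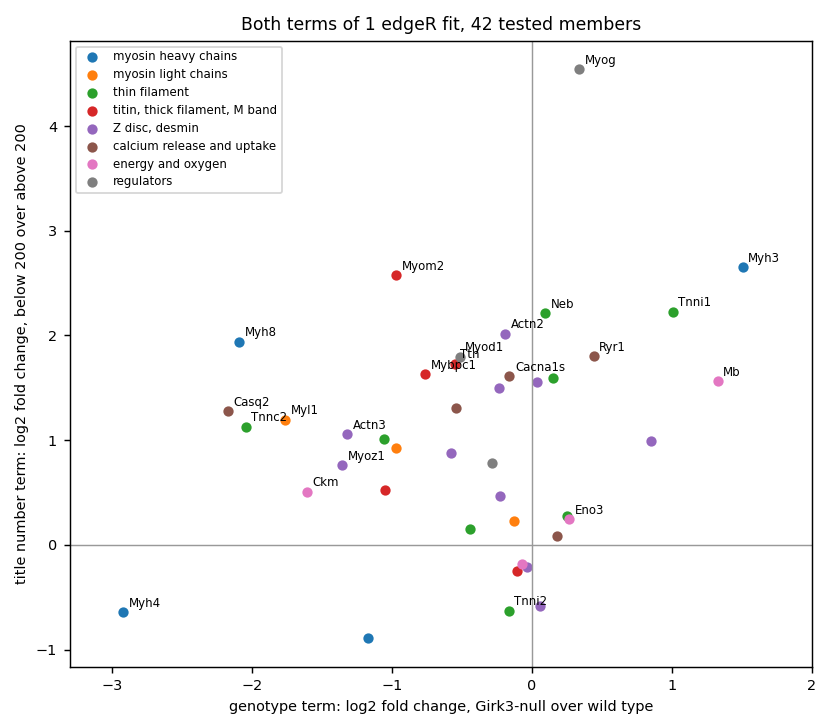
Genotype term (x axis, log2 fold change of Girk3-null over wild type) against title number term (y axis, log2 fold change of numbers below 200 over numbers above 200) for the 42 tested members, both from 1 edgeR fit and coloured by role. Myog at 4.54 and Myh3 at 2.65 lie highest, Myh4 at -2.92 and Casq2 at -2.17 lie farthest left, and Eno3 lies near the origin.

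A set of 8 members kept within a 2-fold range over all 6 libraries while the rest moved by up to 50.3-fold (Myh8). These were Casq1, Eno3, Pygm, Myom1, Myoz2, Tnnt3, Tnnc1 and Myl4, with ranges of 1.32-fold to 1.78-fold. They come from 6 of the 8 roles, and Eno3 and Tnnt3 are among the 5 members with the highest mean RPKM, at 4.44 and 3.99. By contrast 15 members varied by 10-fold or more, taking values of 0 as 3 counts. Girk3-null replicate 2, where Acta1 was at 1.79 and Ckm at 0.206 CPM, had 10.3 CPM of Myom1 and 5.69 CPM of Pygm, the highest level of either gene. Of the exon bases of Myom1 2% are shared with Myl12a on the other strand, which had 73975 counts in all, so part of its level is uncertain.

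**Figure D5:**
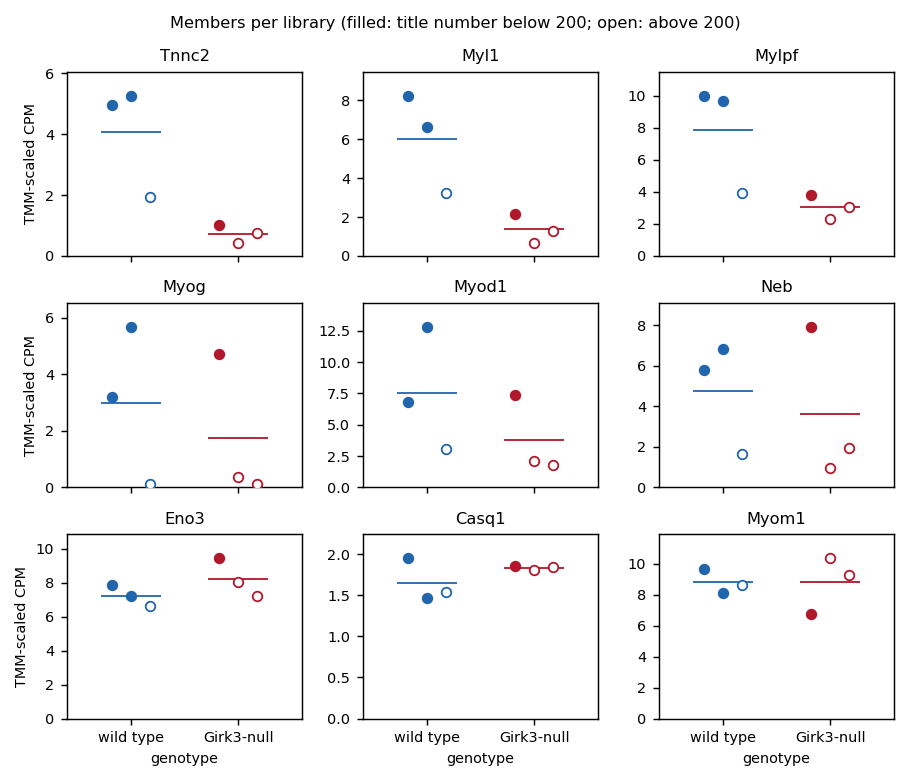
TMM-scaled CPM (y axis, from 0) of 9 members in each library, by genotype (x axis); filled points have title numbers below 200, open points above 200, and lines are group means. Tnnc2, Myl1 and Mylpf are lower in all Girk3-null libraries, Myog, Myod1 and Neb are high in filled points of both genotypes, and Eno3, Casq1 and Myom1 hardly vary.

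Precursor and junction genes resembled the regulators. Of 13 tested genes of satellite cells and myoblasts, 9 were negative and 4 positive (median log2 fold change -0.46), and edgeR called 0 after adjustment. At an unadjusted p under 0.05 edgeR had 1 lower and 1 higher, where 7.02% and 7.49% of all genes were. DESeq2 called 0 lower and 1 higher after adjustment, with 0.997% and 1.14% of all genes. Pax7, which marks satellite cells, had 128, 291 and 26 counts in wild type and 98, 11 and 7 in Girk3-null libraries (log2 fold change -1.97, adjusted p = 0.347). Cdh15, a cadherin of muscle precursors, was the 1 lower gene in edgeR (-1.66), and Mef2c, which chondrocytes also use, was the 1 higher gene in edgeR (0.67). At the neuromuscular junction 7 of 8 tested genes were negative with a median of -0.54, and 0 had an unadjusted p under 0.05. Chrna1, an acetylcholine receptor subunit named after its values were seen, had 236, 624 and 92 counts in wild type and 517, 61 and 42 in Girk3-null libraries, so it was high in the same 3 libraries as Myog.

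A further list of 51 tested genes linked to skeletal muscle, many of them also active in other tissues, had a median of -0.21, with 7 lower and 1 higher at an unadjusted p under 0.05 (7.02% and 7.49% of all genes) and 0 after adjustment in edgeR. Among the lower ones Dysf, which seals torn muscle membranes, had a fold change of -0.54. Pvalb, a calcium buffer of fast fibres, was at -1.39, and Unc45b, a myosin chaperone, at -1.37. Pfkm, a phosphofructokinase, was the higher one at 0.51 and is named after its value was seen. The 7 became 2 without wild type replicate 2 and 4 without wild type replicate 1 or Girk3-null replicate 2. The share of all genes in those fits was not computed. Of 12 heart markers 4 had enough counts to be tested. Myh6, Myl7 and Nppa, heart myosins and a natriuretic peptide, had 0 to 2, 0 to 3 and 0 to 3 counts in any library. The tested Tnni3, Tnnt2 and Nppb had 22 to 63, 16 to 70 and 13 to 60.

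Some marker lists of other cell types also had medians away from 0, and edgeR called 0 markers after adjustment. DESeq2 called 4 endothelial genes lower and 4 chondrocyte genes higher, with 0.997% of all genes lower and 1.14% higher. At an unadjusted p under 0.05 in edgeR the shares of all genes were 7.02% lower and 7.49% higher. All 12 endothelial markers had a negative fold change (median -1.19, 8 lower at an unadjusted p under 0.05), and their summed level was 183.5 to 273.0 CPM in wild type and 52.9 to 147 CPM in Girk3-null libraries. All 10 tested erythroid markers were negative (median -1.18), with 0 at an unadjusted p under 0.05, at 79.0 to 279 CPM against 56.4 to 160 CPM. Of 14 chondrocyte genes 13 were positive (median 0.60, 8 higher), at 53560 to 89140 CPM against 82460 to 130700 CPM. Smooth muscle and pericyte genes had a median of -0.49, Schwann cell genes -0.68, macrophage genes -0.16, cardiac genes -0.09 and tendon genes 0.10. Tnmd, a tendon marker, was lower on its own (-0.92, adjusted p = 0.291 in edgeR). The muscle genes summed to 86.6 to 165 CPM in wild type and 64.9 to 116 CPM in Girk3-null libraries. What part these cell types have in the muscle values was not tested.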

How the data were processed

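Polyadenylated RNA from 3 wild type and 3 Girk3-null libraries was measured by RNA-seq. The authors deposited 1 table of raw counts per gene and of RPKM, per the file headers. The submitters' processing notes name the tools STAR 2.5.2b and bcl2fastq 2.19.0 and the build mm10. For counter, annotation and strand the setting was not given in the sources used here. Members were matched by gene name, and groups came from the genotype label.

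Counts were tested with edgeR 4.0.16 (R 4.3.3; TMM factors, quasi-likelihood test, filterByExpr with a minimum count of 10 and total of 15), with Benjamini-Hochberg adjustment over 17554 genes holding 99.94% of counts. Levels are TMM-scaled CPM, and 3 counts equal 0.0506 to 0.0935 CPM; RPKM was used for levels between genes and for shares. DESeq2 1.42.0, limma 3.58.1, other filters and scalings, each library left out in turn and a title number term were alternatives. In 3 simulated comparisons of 17554 genes with 200 changed, the edgeR test recovered 73.4% of 2-fold and 98.7% of 4-fold changes, with 7.66% false calls. The 200 changed genes were drawn only from genes above a set mean level, and noise was independent between genes. No title number or sex difference was simulated. Many members lie below that level, so these rates do not give the power of the test for them.

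Named with values are the myosin heavy chains and troponins, and in each other role up to 3 members with the highest RPKM and 2 with the smallest p. Ttn, Ryr1, Cacna1s, Mb, Myom2, Tcap, Trdn and Actn2 are named outside that rule, after their values were seen. The members and lists were chosen with earlier results of these data known. Promoters came from the RefSeq table (GRCm38.p6), strand and exon overlaps from GENCODE.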

Additional observations from a re-analysis of the deposited data

How the results depend on the processing

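Of 31 named and tested members, 10 had the opposite sign under at least 1 of 15 alternatives, none of them among the 13 lower at an unadjusted p under 0.05. No adjusted call was lost, since edgeR made none. DESeq2 called 5 members lower after adjustment (Tnnc2, Myl1, Mylpf, Ckm and Myh4), with 0.997% of all genes. EdgeR without a filter on low counts called 2 (Tnnc2 and Myl1), and leaving out 1 library gave 0 to 2 (Tnnc2 and Mylpf without wild type replicate 3). At an unadjusted p under 0.05 the main fit had 13 lower members, against 7.02% of all genes. The count was 8 with at least 1 CPM required in 3 libraries, where 28 members were tested. It was 9 to 23 with 1 library left out, and the 23, without Girk3-null replicate 1, stood against 4.77% of all genes. Higher members numbered 2 with the title number term, against 7.05% of all genes, and 0 to 2 with 1 library left out. Shares of all genes were not computed for the other counts in this paragraph. The median of the members was -0.10 on the log2(RPKM + 1) scale, where the pseudocount shrinks low genes, and -1.41 to -0.37 with 1 library left out. The 7 lower genes of the further muscle list became 1 under the stricter filter and 2 to 10 with 1 library left out. With library size alone the median of all genes moved from 0.01 to -0.09. Where no cause is given, the cause was not tested. Depth limits the scarce members, 7 of which had under 100 counts in all. No paired analysis was possible because the replicate numbers follow accession order and pair no samples.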
